A study of Mus musculus with 3 samples.

Results

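Utf1 and Fgf4 are 2 genes on the distal part of mouse chromosome 7, both long known as targets of the Oct4-Sox2 pair in embryonic stem cells. Their surroundings were described here in a chromatin immunoprecipitation sequencing (ChIP-seq) study of the Utf1 protein, so that one of the genes encodes the precipitated factor itself. Members were all listed peaks that overlapped a gene body, widened by 50 kb on each side, by at least 1 bp. This gave 52 peaks out of 163114 in the 2 deposited lists together. All 52 came from the list for biotin-tagged Utf1, which holds 152608 peaks, and 0 came from the list for endogenous Utf1, which holds 10506.

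KH2 is an embryonic stem cell line from mouse, grown for this study in standard serum medium (15% serum) and maintained on irradiated mouse fibroblast feeders. The 3 samples are 1 library each of a biotin-tagged Utf1 precipitation, an endogenous Utf1 precipitation and a whole-cell extract made without antibody. The labels name 1 Utf1 antibody for both precipitations, although by the protocol the biotin one was done with streptavidin beads. The labels do not say how the tagged protein was expressed, and the extract was not analysed here. Because each group is a single library, spread between replicates is unknown. No p-value was therefore computed, and intervals, given at 95%, cover counting error only.

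The Utf1 protein is bound to chromatin in pluripotent cells, and its name stands for undifferentiated embryonic cell transcription factor 1. Fgf4 is a secreted fibroblast growth factor that embryonic stem cells make and that signals through ERK when they leave the pluripotent state. Both genes are classic cases in which Oct4 and Sox2 bind side by side to an enhancer at the far end of the gene, beyond its coding sequence, rather than at the promoter. A peak list adds to this where the Utf1 protein was recovered around the genes, at the start, at the far end or in the flanks.

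Positions are in mm9 and 1-based. The Utf1 body was taken as chromosome 7, 147129600 to 147131100, and the Fgf4 body as 152047200 to 152051200, so that the windows were 101.5 and 104.0 kb long. These bodies are rounded. They are 244 and 141 bp longer than the genes in the RefSeq table of GRCm38.p6, and distances to a gene start carry an uncertainty of about that size. In that table both genes lie on the forward strand. Kndc1 and Spef1l are the nearest protein-coding neighbours of Utf1 there, and Fgf3 and Fgf15, both also fibroblast growth factor genes, are those of Fgf4.

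Both gene starts were inside a biotin peak, so the promoters are shown. These are the 250 bases before each start on the forward strand, from RefSeq with GRCm38.p6, and capitals mark GGGCGG (the GC box bound by Sp1-type factors) and CCAAT (the box bound by NF-Y), on either strand.
Utf1: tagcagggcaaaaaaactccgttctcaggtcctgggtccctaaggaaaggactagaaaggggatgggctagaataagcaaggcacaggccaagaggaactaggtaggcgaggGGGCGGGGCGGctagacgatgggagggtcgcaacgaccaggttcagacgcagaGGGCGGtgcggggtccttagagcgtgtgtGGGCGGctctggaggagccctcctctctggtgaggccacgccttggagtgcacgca
Fgf4: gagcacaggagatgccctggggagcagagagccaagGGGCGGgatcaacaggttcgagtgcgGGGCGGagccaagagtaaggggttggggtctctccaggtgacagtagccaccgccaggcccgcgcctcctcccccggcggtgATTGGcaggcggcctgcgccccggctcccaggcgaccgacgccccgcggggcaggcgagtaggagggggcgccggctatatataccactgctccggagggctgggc

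The Utf1 promoter held GGGCGG 4 times, beginning 138, 133, 85 and 56 bases before the start, where the first 2 matches share a base. The Fgf4 promoter held it 2 times, beginning 214 and 188 bases before the start, and held CCAAT once on the reverse strand, in the run that begins 106 bases before the start. Of 32851 promoter stretches of the same length, 32.7% held GGGCGG and 33.8% held CCAAT on either strand, so neither match is rare. Neither stretch held the octamer ATGCAAAT bound by Oct4 (1.60% of promoters), the Sox element CATTGT (10.7%) or TATAAA (12.4%), which says only that these letters are not in these windows. The Fgf4 stretch does hold the similar run TATATATA near its end, which a search for the exact letters TATAAA does not count. Both promoter stretches were above the median in GC and CpG. Among all promoters, 75.7% had a lower GC share and 70.6% fewer CpG than the Utf1 stretch. For the Fgf4 stretch these shares were 92.2% and 83.7%. The Utf1 stretch was 61.6% GC with 14 CpG and the Fgf4 stretch 71.2% GC with 21 CpG, against medians of 52.4% and 6 over all promoters.

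The largest peak of the Utf1 window by tags lay on Utf1 itself. Since it is not stated how the tagged protein was expressed, reads from any added Utf1 sequence cannot be told apart from those of the gene. Tags are the sequenced reads inside a peak, and fold is the enrichment listed by the authors, over a background that the labels do not name. The peak spanned 147129178 to 147132522 and covered the gene body from end to end, reaching 422 bp before it and 1422 bp past it. It had 498 tags (455 to 544), a fold of 11.43, a width of 3345 bp and 149 tags per kb. Its summit, the position of highest signal, lay 327 bp after the start of the body, near the promoter end of the gene.

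Among the 10337 biotin peaks of chromosome 7, the peak on Utf1 ranked 85th by tags, within the top 0.822%. By tags per kb it was within the top 1.14%, by fold within the top 1.95% and by width within the top 3.87%. The nearest peak with more tags had its summit 364 kb away, at 146761249 to 146773382, with 1425 tags. The nearest with a higher fold was the next peak before the gene. A peak at 147233104 to 147236233, with its summit 105 kb after that of the peak on Utf1, came close by tags. It had 489 tags, within the interval of the peak on Utf1 (455 to 544). Its fold of 12.51 and its 156 tags per kb were higher. The peak on Utf1 thus led this more distant peak by tags only within counting error, and was lower by fold. Inside the window its lead by tags was wider, as the next peak had 387 tags (349 to 428). By fold the peak on Utf1 was not the highest of the window.

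The peaks beside Utf1 were strong as well. The peak at 147125239 to 147127476 ended 2124 bp before the body and had 191 tags (165 to 220) with a fold of 11.55. Before it, 147122274 to 147124648 had 169 tags (144 to 196) and a fold of 8.62. After the gene, 147135311 to 147137789 began 4211 bp past the body and had 339 tags (304 to 377) with a fold of 7.58. In tags per kb the downstream peak came close to the one on the gene, with 137 against 149, and the 2 upstream peaks had 85.3 and 71.2. The intervals of these densities, 123 to 152 for the downstream peak and 136 to 163 for the peak on the gene, overlap.

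The 4 peaks on or up to 5 kb from Utf1 had folds of 7.58 to 11.55 with a median of 10.025, and 169 to 498 tags. The 9 peaks over 5 and up to 25 kb away had a median fold of 3.45 (2.59 to 10) and a median of 44 tags, and the 13 farther peaks had a median fold of 4.83 (2.24 to 11.96) and a median of 125 tags. The weakest peaks of the window therefore lay at middle and long distances, while the far flanks held strong ones too. The highest fold of the window, 11.96, belonged to 147099010 to 147102429, with 387 tags (349 to 428) and a summit 29338 bp before the gene start. The widest peak, 147155768 to 147159280 with 3513 bp, had its summit 28021 bp after the start and a moderate fold of 5.17 with 209 tags.

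Fgf4 had a different arrangement, with a strong peak at its start, a weak one inside and none listed over its end. The peak at the start spanned 152045300 to 152048452, 3153 bp, with 306 tags (273 to 342), a fold of 8.67 and 97.1 tags per kb. Its summit lay 74 bp before the start of the body, which is closer than the rounding of the body can resolve. It was within the top 4.28% of chromosome 7 by tags and the top 8.57% by fold. The peak inside, 152048719 to 152049761, had 41 tags (29.4 to 55.6) and a fold of 3.64, below the median fold of the whole biotin list, 4.14.

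No biotin peak was listed over the last 1439 bp of the Fgf4 body. The Oct4-Sox2 enhancer of Fgf4 was originally described in the last exon, but exon positions were not used here. Where the enhancer lies against this part of the body is therefore not shown. The stretch without a listed peak was 2923 bp long, and the peak that followed, 152052685 to 152054073, began 1485 bp past the body. That peak had a fold of 8.67, equal to the peak at the start, with 140 tags (118 to 165) over 1389 bp. Its 101 tags per kb (84.8 to 119) stood beside 97.1 (86.5 to 109) at the start, and the intervals overlap. In all, peaks covered 57.4% of the Fgf4 body and the whole of the Utf1 body. A stretch without a listed peak is one that did not pass the caller, and no tag count is given for it.

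Upstream of Fgf4, 152042857 to 152044773 had a fold of 6.61 with 130 tags (109 to 154). The peak before that, 152040698 to 152042751, had a fold of 5.69 with 104 tags (84.98 to 126). Values thus stepped down over these 2 peaks, but this did not continue by fold. The next peak out, 152036615 to 152037753, had a fold of 6.78 with 87 tags. The strongest peaks of the Fgf4 window lay farther out. By fold they were 152007244 to 152011951, with 12.59 and 414 tags (375 to 456), 152080498 to 152083588, with 11.89 and 430 tags (390 to 473), and 152072529 to 152076277, with 9.72 and 306 tags (273 to 342). Their summits lay 39275 bp before and 35535 and 27717 bp after the gene start. The first of them was also the widest of the window, with 4708 bp. The peak with the most tags, 152022721 to 152026753, was named after its value was seen. It had 502 tags (459 to 548) and a fold of 8.54, with a summit 22410 bp before the gene start.

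The 2 genes therefore differed in whether the gene itself carried the top of its window. The peak on Utf1 had the most tags of its 26 peaks and the third highest fold. Any reads from added Utf1 sequence would count on Utf1 and not on Fgf4, which was not tested. The peak at the Fgf4 start had fewer tags than 4 other peaks that lay between 11724 and 39275 bp from the gene start, and the same number as the one at 152072529. Tags of the peaks that overlap the gene made up 13.9% of all tags in the Utf1 window (12.8 to 15.1) and 9.27% in the Fgf4 window (8.36 to 10.2). These shares count whole peaks, which reach outside the gene bodies of 1501 and 4001 bp. They therefore do not measure tags on the genes alone, which are not listed.

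**Figure D1:**
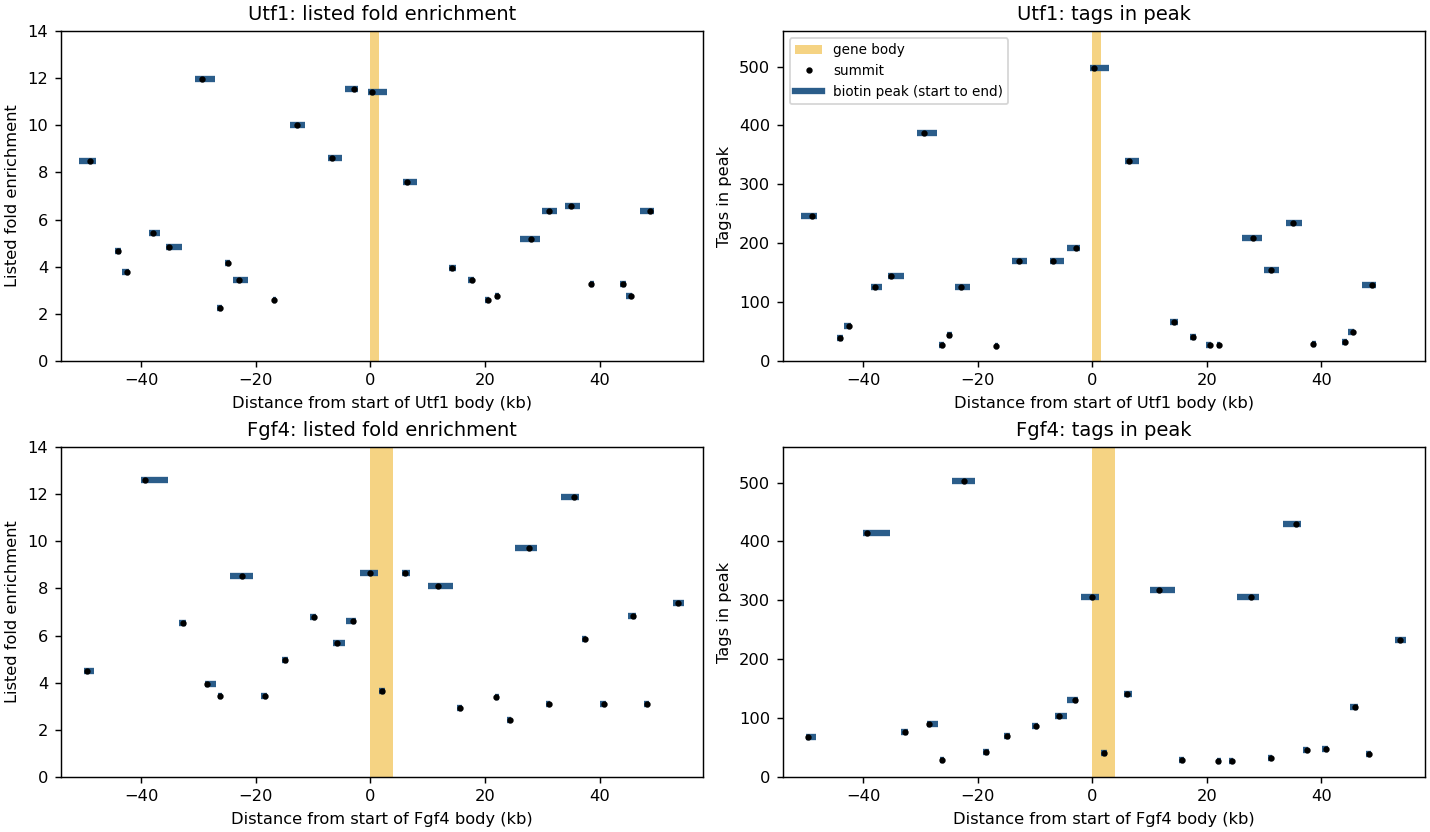
Biotin peaks within 50 kb of Utf1 (top) and Fgf4 (bottom), by distance from the start of the gene body in kb, against listed fold (left) and tags per peak (right). Bars run from peak start to peak end, points are summits and the shaded band is the gene body. The 498-tag peak tops the Utf1 window on the gene, whereas the 502-tag peak of the Fgf4 window lies before the gene.

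Both windows held 26 biotin peaks, with similar totals. In the Utf1 window 13 lay before the gene, 1 on it and 12 after. They had 3581 tags (3465 to 3700), and 48.3 kb of the window lay in peaks. In the Fgf4 window 11 lay before the gene, 2 on it and 13 after. They had 3745 tags (3626 to 3867), and 46.9 kb lay in peaks. Peaks therefore covered 47.6% and 45.1% of the windows. Tags count whole peaks, also the parts of the first Utf1 peak and the last Fgf4 peak that lie outside the windows. Merging peaks up to 1 kb apart left 19 stretches in each, the longest 9.29 and 9.06 kb, so neither window was a single continuous domain.

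Within each window the peaks ranged from strong to barely listed. Utf1 window folds ran from 2.24 to 11.96 (median 4.74) and tags from 25 to 498 (median 125). Fgf4 window folds ran from 2.41 to 12.59 (median 5.78) and tags from 26 to 502 (median 81.5). Widths had medians of 2094 and 1285 bp. Over chromosome 7 the medians were a fold of 4.14, 53 tags and 1100 bp, and the smallest tag count was 22, so each window also held peaks close to the lower limit of the list. In each window 10 of 26 peaks had up to 50 tags, against 47.7% of the biotin peaks of the chromosome.

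High values were more frequent among the members than along the chromosome. A fold of 6.03 or more, the upper quartile of the biotin list, was reached by 10 of 26 peaks in the Utf1 window and 12 of 26 in the Fgf4 window, together 42.3% (28.7 to 56.8), against 24.2% of all chromosome 7 biotin peaks. The top 10% of the list by tags held 6 and 7 of them, together 25% (14.03 to 38.9), against 10.4% on chromosome 7. At the listed value of 3100 for 10 times the −log10 p stood 1 peak of the Utf1 window, the one on Utf1, and 2 of the Fgf4 window, those at 152022721 and 152080498, against 0.735% of chromosome 7 peaks. At the other end, 21 of the 52 had a fold below the list median, 40.4% (27.0 to 54.9), and 49.2% on the chromosome did. Peaks of 1 window share a region and are not independent, so these intervals are too narrow.

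**Figure D2:**
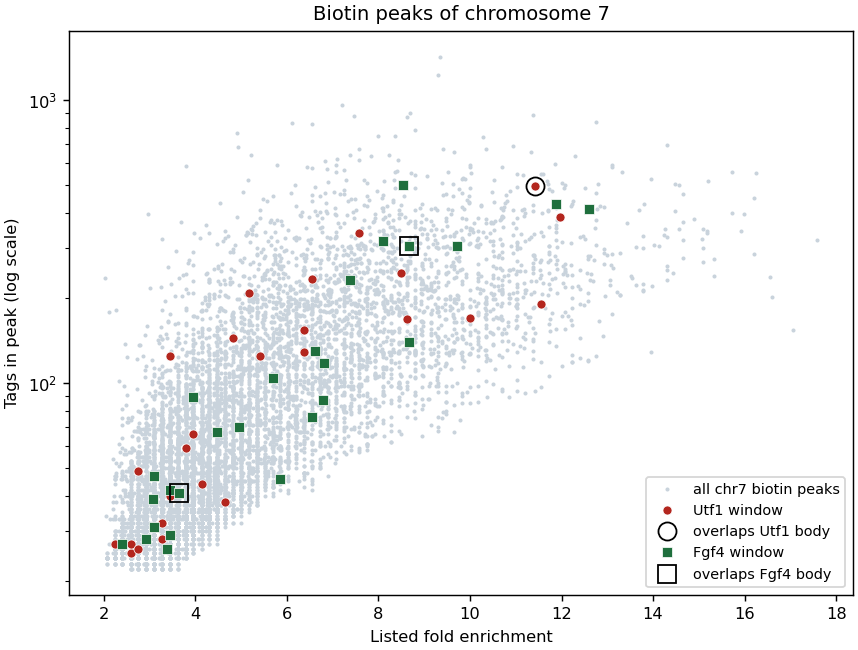
Listed fold (x axis) against tags per peak (y axis, log scale) for all 10337 biotin peaks of chromosome 7 in grey, those of the Utf1 window as red circles and those of the Fgf4 window as green squares, with open black symbols around peaks on the genes. The peak on Utf1 (11.43, 498 tags) and the peak at the Fgf4 start (8.67, 306 tags) lie in the upper part of the cloud, and the peak inside Fgf4 (3.64, 41 tags) lies in the dense lower part.

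Set among other windows of the same length, both gene windows were near the top of chromosome 7 by peak number and by covered sequence. Chromosome 7 was tiled from base 1 to the last listed peak, and tiles that overlapped the gene window were left out. Tiles without any biotin peak, 243 of the Utf1 length and 236 of the Fgf4 length, were kept. Of 1500 tiles of the Utf1 length, 67 (4.47%) held 26 or more biotin peaks, with a median of 3 and a highest count of 36. Of 1464 tiles of the Fgf4 length, 59 (4.03%) held 26 or more, with a median of 4 and a highest count of 34. By covered sequence, 30 tiles (2.00%) reached the 47.6% of the Utf1 window and 33 (2.25%) the 45.1% of the Fgf4 window, and the medians were 3.77% and 3.88%. Among only the tiles with a biotin peak, 5.33% and 4.80% held 26 or more, with a median of 5 for both lengths. Of these tiles, 2.39% and 2.69% reached the covered sequence of the gene windows.

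The strongest single peaks were matched in more tiles than the peak numbers were. A peak with at least 498 tags was found in 77 tiles of the Utf1 length (5.13%), and one with at least 502 tags in 78 tiles of the Fgf4 length (5.33%). A fold of at least 11.96 was found in 130 tiles (8.67%) and one of at least 12.59 in 89 tiles (6.08%). The median fold of the peaks in a window, 4.74 for Utf1 and 5.78 for Fgf4, was reached by 34.1% and 18.6% of the tiles with any peak. Fewer tiles thus reached the gene windows by peak number and covered sequence than by the highest fold.

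**Figure D3:**
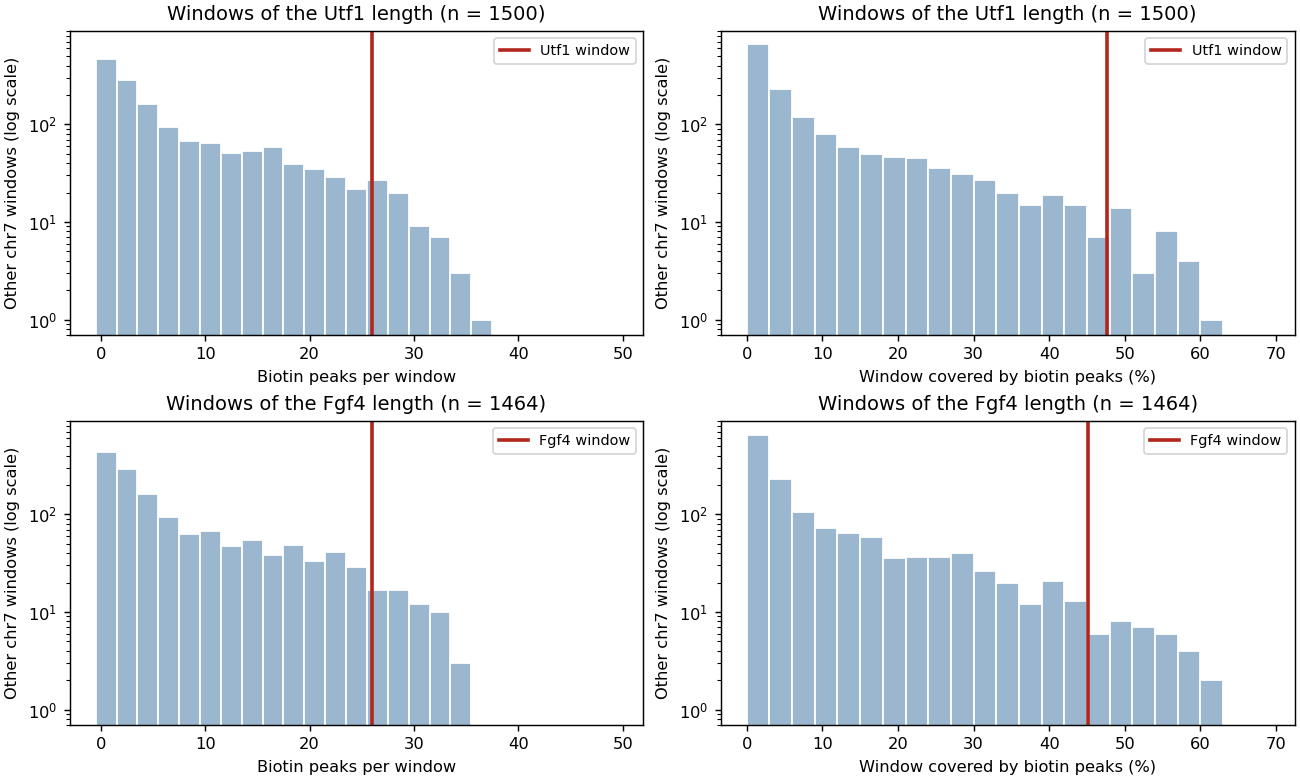
Distribution of biotin peaks per window (left) and of the share of the window covered by biotin peaks in percent (right) over other chromosome 7 windows of the Utf1 length (top, n = 1500) and the Fgf4 length (bottom, n = 1464). The y axis counts windows on a log scale, and the red line marks the gene window, at 26 peaks in both and at 47.6% and 45.1% covered, to the right of most windows.

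Both windows lay in regions rich in biotin peaks, so the chromosome is a lenient comparison. Tiles within 5 Mb, a comparison added after the values were seen, had a median of 13 peaks around Utf1 and of 17 around Fgf4. Of these, 5 of 99 tiles around Utf1 (5.05%) and 3 of 51 around Fgf4 (5.88%) held 26 or more peaks. By covered sequence 4 of 99 reached the Utf1 window and 0 of 51 reached the Fgf4 window. For the highest fold the local comparison moved further: 23 of 99 tiles (23.2%) reached 11.96 and 9 of 51 (17.6%) reached 12.59.

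Tiles with 20 to 32 biotin peaks, a range also chosen after the values were seen, match the gene windows loosely in peak number. Their median was 24 peaks for both lengths, and 86 of 146 tiles of the Utf1 length and 103 of 156 of the Fgf4 length held fewer than 26. Of all tiles in this range, 22 of 146 (15.1%) covered at least as much as the Utf1 window and 27 of 156 (17.3%) as much as the Fgf4 window. The Fgf4 window stood higher by the median fold of its peaks, which 5 of 156 such tiles (3.21%) reached, against 29 of 146 (19.9%) for Utf1.

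The windows next to the gene windows showed how local the density was. Just before the Utf1 window a stretch of equal length held 19 peaks with 24.8% covered, and just after it 11 peaks with 19.2% covered. Just before the Fgf4 window there were 28 peaks with 38.2% covered, and just after it 21 peaks with 27.3%. Of 60 flanking windows up to 3.05 Mb on either side, 3 held more peaks than the Utf1 window and 2 had more tags. Of 33 flanking windows of Fgf4, which end 0.312 Mb after it with the list, 2 held more peaks and 0 had more tags. By covered sequence, 2 of the 60 exceeded the Utf1 window and 0 of the 33 exceeded the Fgf4 window. Each gene window was thus a rise within its region by covered sequence and tags. The flanking windows had a median of 13 peaks around Utf1 and 17 around Fgf4. They were uneven in both regions, with 0 peaks in the window 508 kb after Utf1 and windows of 4 and 5 peaks before Fgf4.

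**Figure D4:**
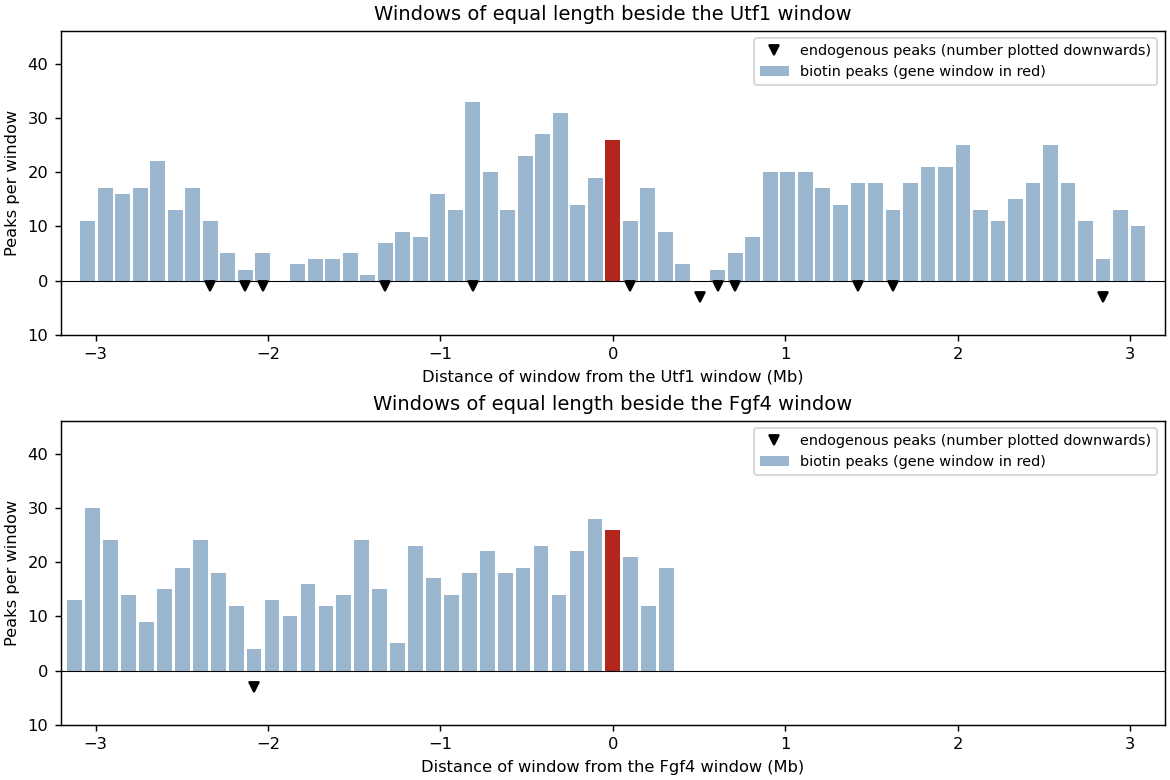
Biotin peaks per window (bars, gene window in red) and endogenous peaks per window (triangles, plotted downwards) in windows of equal length beside the Utf1 window (top) and the Fgf4 window (bottom), by distance in Mb. Both gene windows hold 26 biotin peaks and 0 endogenous peaks, and the bars of the Fgf4 panel end 0.312 Mb after the gene window, where the list ends.

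The endogenous list held no peak in either window. The nearest to Utf1 lay 71.2 kb after the gene, at 147202312 to 147202899, with 14 tags (7.65 to 23.5) and a fold of 1.34, close to the list minimum of 13 tags. It overlapped a biotin peak, 147200448 to 147202448, whose fold was 3.9 with 86 tags, and the summits were 869 bp apart. The nearest to Fgf4 lay 2.08 Mb before the gene, at 149966303 to 149966950, and overlapped no biotin peak. Its fold was 1.12, with 16 tags (9.15 to 26.0). It was the last endogenous peak of the chromosome, and 422 biotin peaks lay beyond it.

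An empty window was the usual case in the endogenous list. Chromosome 7 held 592 endogenous peaks, 3.88 per Mb, against 67.8 biotin peaks per Mb. Of other tiles of the Utf1 length 28.0% held at least 1 endogenous peak, and of those of the Fgf4 length 28.0% as well. Within 5 Mb the shares were 13.1% (13 of 99) and 13.7% (7 of 51), and among tiles with 20 to 32 biotin peaks 11.6% (17 of 146) and 12.2% (19 of 156). Most windows thus lacked an endogenous peak, as those of Utf1 and Fgf4 did, and with an unknown depth this does not show whether the endogenous protein was there.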

How the data were processed

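ChIP-seq peaks of 2 libraries, 1 per precipitation, were used. Per the submitters' processing notes, positions are in mm9, and BWA 0.5.7 was used along with R 2.15.2, in roles that are not stated. The caller, its settings and the control behind the peaks were not given in the sources used here. Tags are whole-number counts per peak in the deposited lists, not scaled for depth, so library depth is unknown. Fold enrichment is a linear ratio, the false discovery rate a percent, and peak strength a score of 10 times the −log10 p, all as deposited and per the file headers. Summits are counted from the peak start.

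Peaks were assigned by an overlap of at least 1 bp, and a peak on a tile border counted in both tiles. Intervals are exact Poisson for tags and exact Clopper-Pearson for shares. Member counts were identical with bedtools 2.31.1, and the tiling recovered all of 1000 simulated windows. Scripts ran in Python 3.11.15 (scipy 1.17.1, pandas 2.3.3, numpy 2.4.6, matplotlib 3.10.9). Peaks were named if on or within 5 kb of a gene, among the 3 highest folds or widest in a window, or the nearest endogenous peak. Some others were named after their values were seen. Members and lists were chosen with earlier results of these data known. A genome of mm9 was not used here, so no peak sequence is shown.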

Additional observations from a re-analysis of the deposited data

How the results depend on the processing

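For 8 results 40 alternative values were computed, of which 23 lay within the interval of the main value or 1.5 times the count and 17 moved. The share of tiles with fewer peaks than the Utf1 window, 95.5%, became 93.6% with 25 kb on each side, 89.4% with 100 kb and 96.8% for peaks at or above the median fold. For the Fgf4 window, 96.0% became 94.0, 98.1 and 97.3%, and 94.1% among tiles within 5 Mb. The share of tiles less covered than the Utf1 window, 98.0%, became 95.4% with 25 kb, 93.4% with 100 kb and 96.0% within 5 Mb, where the Fgf4 window, at 97.7%, reached 100%. The comparison within 5 Mb was added after seeing the data. The 26 biotin peaks became 13 (Utf1) and 14 (Fgf4) with 25 kb on each side and 15 and 16 at or above the median fold. With 100 kb the Fgf4 window held 53, and the Utf1 window held 1 endogenous peak. Shorter and longer windows hold fewer and more peaks by construction. Otherwise the cause was not tested. No paired analysis was possible because each group has 1 library, and no replicate could be left out. Unknown depth limits what a missing peak can show.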

Other observations

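The listed false discovery rate did not follow the listed p-value at its strong end. All 1488 biotin peaks at the value 3100, among them the peak on Utf1, carry a rate of 0.17%, whereas the 15565 peaks from 1000 to below 3100 have a median of 0.06% and the 243 above 3100 have 0%. The neighbour of Utf1 at 147125239, with fewer tags (191) and a fold of 11.55, is thus listed with a lower rate (0.05%) than the peak on the gene, with 498 tags and a fold of 11.43 (0.17%). Ranking these peaks by this column gives the reverse of their order by tags, and the same order as by fold.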
